A study of Mus musculus with 12 samples.

Results

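The genes described here are 9 genes that mark fat cells, and they were followed in the left ventricle of 12 mice. They are Adipoq, Retn, Cfd and Lep, whose products fat cells secrete, Plin1, Cidec and Cidea, whose products coat or enlarge lipid droplets, Fabp4, a carrier of fatty acids, and Pparg, a nuclear receptor that drives the formation of fat cells. Members were chosen by name: every probe whose gene name on the array equals 1 of the 9 symbols was taken. This gave 11 of the 55681 probes on the array, and 10 of the 11, for 8 of the 9 genes, were among the 24593 probes (18021 gene names) that passed the filter on background. Lep was the gene that did not pass.

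RNA came from the left ventricular free wall with the apex, without the septum, of mice aged 6 months, with 4 hearts in each of 3 groups and 1 one-colour Agilent array for each heart. All groups descend from mice with floxed Nkx2-5-Δneo alleles, and the mutants also carried Cx40-creERT2, a tamoxifen-inducible Cre driven by the gene of a gap junction protein of trabecular myocardium and arterial endothelium. TrbE10 mice were exposed to tamoxifen in utero at E10.5 and E11.5, and TrbE14 mice at E13.5 and E14.5. Control mice were, by the methods, littermates with 2 floxed alleles and wild-type Cx40, and were not injected according to the sample labels. Pups of treated dams were delivered by caesarean section and raised by CD1 females.

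White fat cells hold 1 large droplet of triglyceride, and release hormones such as adiponectin, leptin and resistin together with the complement protease adipsin, the product of Cfd. The pericardium and the grooves of the heart carry fat, and a piece of ventricle can take some of it along. Several genes used as fat cell markers are active in other cells of the heart too: Fabp4 is made by capillary endothelium and by macrophages. In bulk RNA of this kind, fewer cells of a type and less RNA per cell cannot be told apart.

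What the array measured is shown first. The 60-base probes of Adipoq (mm9, chr16:23157576-23157635, plus strand) and of Retn (the second of its probes, mm9, chr8:3657312-3657371, plus strand), and the dimmer of the 2 Cidec probes (mm9, chr6:113378116-113378175, minus strand), are given as examples from the genes whose signal varied widely between hearts. They are written in lower case, with no part marked. The log2 signals of Retn and Cidec listed by heart below come from the other probe of each gene.

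Adipoq probe: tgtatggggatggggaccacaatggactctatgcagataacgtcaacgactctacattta

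Retn probe: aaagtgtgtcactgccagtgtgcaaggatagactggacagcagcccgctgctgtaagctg

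Cidec probe: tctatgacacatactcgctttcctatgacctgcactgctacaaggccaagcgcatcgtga

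The 250 bases before the start site were available from RefSeq (GRCm38.p6) for 7 members, with 10 start sites in all. Those of Adipoq (chr16:23146286-23146535, plus strand), Plin1 (chr7:79732777-79733026, minus strand) and Cidec (1 of 2 start sites, chr6:113434765-113435014, minus strand) are shown, as their signals rose and fell together over the hearts, beside 1 start site of Pparg (chr6:115362099-115362348, plus strand), whose signal did not follow theirs. The capitals mark matches, on either strand, to AGGTCA (the core hexamer of many nuclear receptor sites), TTNNGCAA (C/EBP-like), CCAAT or TATAAA.

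Adipoq: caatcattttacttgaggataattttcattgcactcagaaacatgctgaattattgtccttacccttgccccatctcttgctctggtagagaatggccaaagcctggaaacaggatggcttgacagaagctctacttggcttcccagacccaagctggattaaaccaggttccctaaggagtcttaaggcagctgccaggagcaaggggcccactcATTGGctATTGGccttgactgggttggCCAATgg

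Plin1: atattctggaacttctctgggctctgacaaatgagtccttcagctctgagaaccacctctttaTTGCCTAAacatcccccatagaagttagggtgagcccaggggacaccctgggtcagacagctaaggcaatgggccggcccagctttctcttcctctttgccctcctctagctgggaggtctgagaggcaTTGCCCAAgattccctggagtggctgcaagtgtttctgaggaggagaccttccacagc

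Cidec: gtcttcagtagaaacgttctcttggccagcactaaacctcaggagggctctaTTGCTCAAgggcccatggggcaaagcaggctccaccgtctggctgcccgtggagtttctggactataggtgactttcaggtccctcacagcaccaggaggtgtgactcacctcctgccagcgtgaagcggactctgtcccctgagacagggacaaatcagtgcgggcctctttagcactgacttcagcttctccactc

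Pparg: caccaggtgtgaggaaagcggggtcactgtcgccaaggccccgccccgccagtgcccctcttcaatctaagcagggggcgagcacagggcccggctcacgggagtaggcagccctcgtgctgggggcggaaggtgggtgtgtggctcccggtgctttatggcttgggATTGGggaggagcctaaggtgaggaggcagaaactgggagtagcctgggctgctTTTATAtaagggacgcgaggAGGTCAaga

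Adipoq held CCAAT 3 times, Plin1 held TTNNGCAA 2 times and Cidec held it once, while none of the 4 motifs was found in the windows of Retn and Cfd. The Cidec start site that is not shown held none of the motifs either. A Pparg start site that is not shown held TTNNGCAA at 16 and at 215 bases before the start, so this motif did not separate Pparg from Plin1 and Cidec. Over 32817 promoter windows of the same length, AGGTCA was present in 14.0%, TTNNGCAA in 9.57%, CCAAT in 33.8% and TATAAA in 12.4%. Of the 10 start sites of the members, 2 held AGGTCA, 4 held TTNNGCAA, 3 held CCAAT and 1 held TATAAA. No motif was found in all of Adipoq, Plin1, Cidec, Retn and Cfd, and a match of these letters is a description of the sequence only.

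The labels were checked with Nkx2-5 itself, which was lower in both mutants without overlap with the controls (log2 change -0.66 ± 0.14 (SE) in TrbE10, adjusted p = 0.0459, and -0.59 ± 0.14 in TrbE14, adjusted p = 0.106, limma). The 75th percentile of the processed signal lay between 195 and 250 on all arrays, and between 22888 and 26155 probes were well above background. The control and TrbE14 arrays filled the 2 rows of 1 slide, a row for each group, and a second slide held the TrbE10 arrays only, which means that TrbE10 and its slide cannot be told apart. Signal of the Y-linked genes Ddx3y and Eif2s3y was present in 6 hearts (control 1, TrbE10 2 and 4, and TrbE14 2, 3 and 4) and absent in 6.

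No member was called at an adjusted p under 0.05 in any comparison, beside 1.69% of all probes in TrbE10 against control, 0.602% in TrbE14 against control and 0% between the mutants. The 8 measured genes fell into a set of 5 whose signal differed widely between hearts of 1 group (Adipoq, Retn, Cfd, Plin1 and Cidec) and a set of 3 that was steadier (Fabp4, Pparg and Cidea). In each of the 5, control 4 was the highest heart of 12 and TrbE10 2 the lowest. The sets were read from the spread and from the correlations given below, after these were seen, and get no test.

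**Figure D1:**
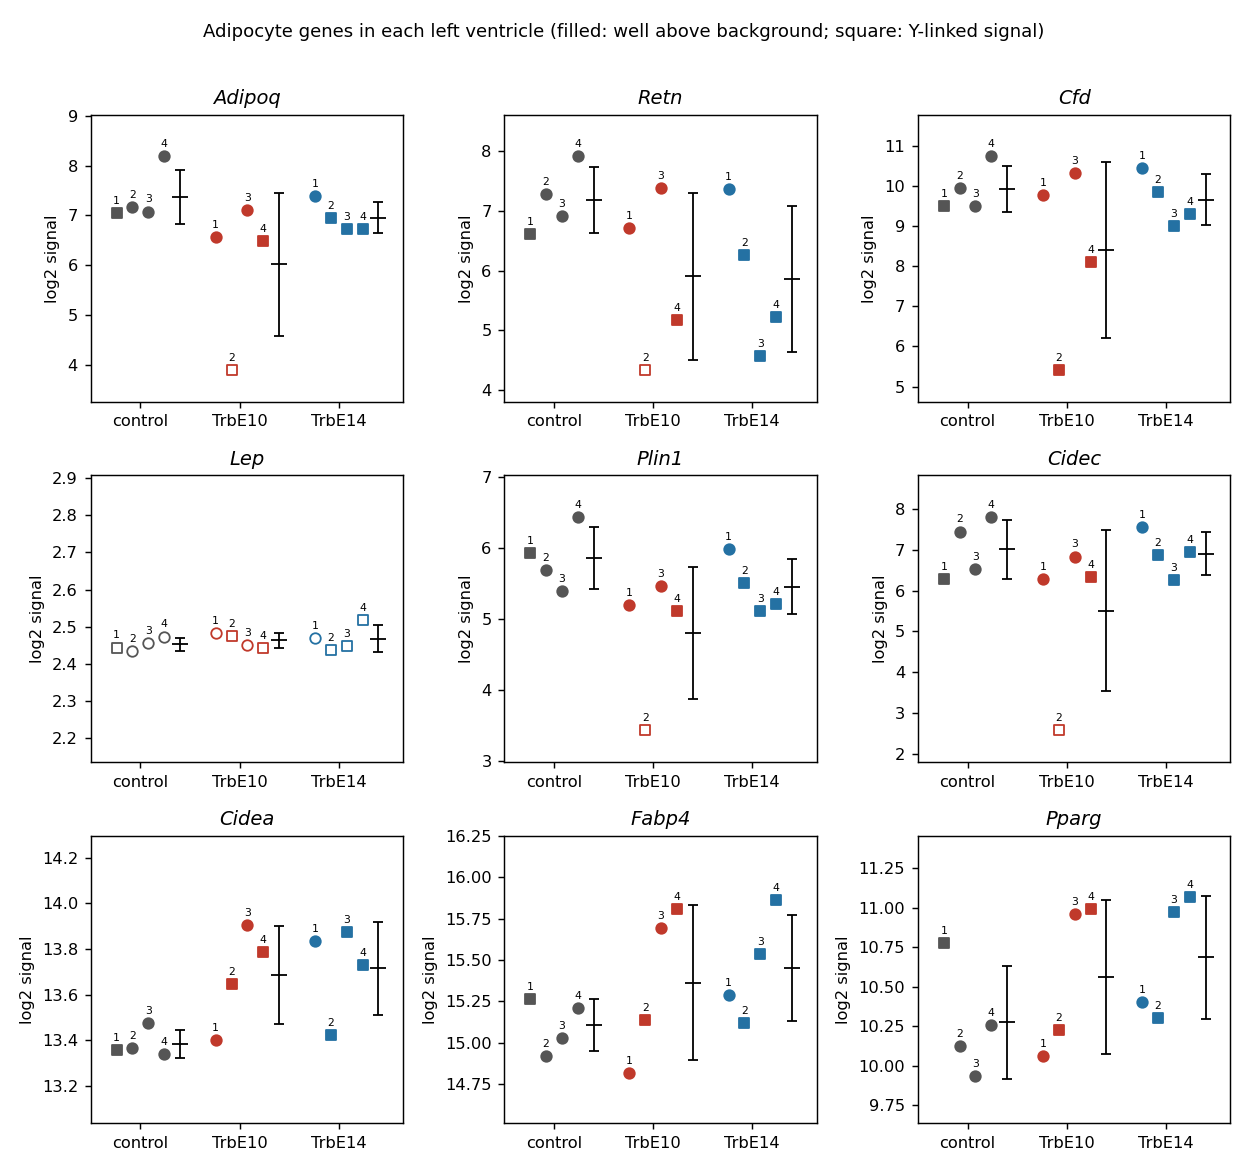
Log2 signal (y axis) of the 9 genes in each heart, by group (x axis), with the replicate number above each point and the mean ± SD of 4 hearts at the right of each group. Filled points are well above background, open points are not, and squares are hearts with Y-linked signal. TrbE10 2 lies far below the other 11 hearts for Adipoq, Cfd, Plin1 and Cidec, and Lep is open in all 12. The y axes differ between panels and do not start at 0.

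Of the secreted products, Adipoq encodes adiponectin, a hormone made by fat cells. Its normalised log2 signal was 7.06, 7.17, 7.08 and 8.18 in the 4 control hearts, 6.58, 3.91, 7.12 and 6.49 in TrbE10, and 7.39, 6.96, 6.74 and 6.74 in TrbE14. The groups overlapped, and TrbE10 2 alone was not well above background. Control 4 exceeded that heart at least 11.4-fold, as set against the lowest signal well above background on its array. In limma the log2 change was -1.35 ± 0.58 (SE) in TrbE10 against control (adjusted p = 0.278) and -0.42 ± 0.58 in TrbE14 against control (adjusted p = 0.764). Without TrbE10 2 the first change was -0.64 ± 0.29, with an adjusted p of 0.256.

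Retn encodes resistin, an adipokine of white fat in mice. By the brighter of its 2 probes, the log2 signal was 6.62, 7.27, 6.91 and 7.90 in control, 6.70, 4.34, 7.38 and 5.17 in TrbE10, and 7.36, 6.26, 4.58 and 5.22 in TrbE14. Both mutant groups held hearts within the control range and hearts below it, and TrbE10 2 was not well above background (control 4 at least 9.40-fold higher). Changes were alike in size: -1.27 ± 0.71 in TrbE10 (adjusted p = 0.405) and -1.32 ± 0.71 in TrbE14 (adjusted p = 0.436), and 0.05 ± 0.71 between the mutants (adjusted p = 0.996). Without TrbE10 2 the first was -0.76 ± 0.68 (adjusted p = 0.586). The other probe gave changes of -1.73 and -1.40 against control.

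Cfd encodes adipsin, also called complement factor D. Its log2 signal was 9.51, 9.95, 9.50 and 10.74 in control, 9.77, 5.42, 10.31 and 8.10 in TrbE10, and 10.45, 9.86, 9.01 and 9.31 in TrbE14. All 12 hearts were well above background, and the highest, control 4, exceeded the lowest, TrbE10 2, 40.0-fold, while the span was 6.21-fold over the other 11 hearts. The log2 change was -1.52 ± 0.87 in TrbE10 (adjusted p = 0.415) and -0.27 ± 0.87 in TrbE14 (adjusted p = 0.907). Without TrbE10 2 the former was -0.53 ± 0.53.

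Lep, which encodes leptin, was not well above background on any of the 12 arrays. Its log2 signal lay between 2.44 and 2.52 over 10 spots per array, so that no fold is given.

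Among the genes of the lipid droplet, Plin1 encodes perilipin, the coat protein that guards the droplet of fat cells against lipases. Its log2 signal was 5.92, 5.70, 5.40 and 6.44 in control, 5.20, 3.43, 5.46 and 5.12 in TrbE10, and 5.99, 5.51, 5.12 and 5.21 in TrbE14. All 4 TrbE10 hearts were below 3 of the 4 controls, and replicate 2 was not well above background (control 4 at least 3.40-fold higher). The log2 change of -1.06 ± 0.41 in TrbE10 had an adjusted p of 0.228, and in an exact two-sided permutation test (n = 4 against 4) p was 0.0571, where the smallest possible is 0.0286. In TrbE14 the change was -0.41 ± 0.41 (adjusted p = 0.669).

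Cidec encodes a protein that fuses droplets into the large droplet of white fat. By its brighter probe the log2 signal was 6.28, 7.44, 6.52 and 7.80 in control, 6.29, 2.58, 6.83 and 6.34 in TrbE10, and 7.56, 6.87, 6.25 and 6.94 in TrbE14. TrbE10 2 was not well above background, and control 4 exceeded it at least 8.74-fold. The log2 change was -1.50 ± 0.79 in TrbE10 (adjusted p = 0.380), -0.52 ± 0.39 without TrbE10 2, and -0.11 ± 0.79 in TrbE14 (adjusted p = 0.959). The dimmer probe gave -0.59 and -0.50. It was well above background in 3 control hearts, 1 TrbE10 heart and 1 TrbE14 heart. It thus passed the filter through the control group only, and these 2 changes are no independent support for the brighter probe.

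Cidea encodes a relative of Cidec best known from brown fat. Its log2 signal was 13.36, 13.37, 13.47 and 13.34 in control, 13.40, 13.65, 13.90 and 13.79 in TrbE10, and 13.84, 13.43, 13.87 and 13.73 in TrbE14. The controls lay close together, with 3 hearts of each mutant group above all of them and 1 within their range. Against control, the mean log2 signal differed by 0.30 ± 0.13 in TrbE10 (adjusted p = 0.267) and 0.33 ± 0.13 in TrbE14 (adjusted p = 0.289), with an exact permutation p of 0.0571 in each.

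Fabp4 encodes the fatty acid binding protein of fat cells, which endothelium also makes. Its log2 signal was 15.26, 14.92, 15.03 and 15.21 in control, 14.81, 15.13, 15.69 and 15.81 in TrbE10, and 15.29, 15.12, 15.53 and 15.86 in TrbE14. The heart that was lowest for the other set, TrbE10 2, stood within the control range here. Its changes were 0.26 ± 0.22 in TrbE10 (adjusted p = 0.613) and 0.35 ± 0.22 in TrbE14 (adjusted p = 0.510).

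Pparg, measured by 10 spots per array, is the receptor under which fat cells form. Its log2 signal was 10.78, 10.12, 9.94 and 10.26 in control, 10.06, 10.23, 10.96 and 11.00 in TrbE10, and 10.40, 10.30, 10.97 and 11.07 in TrbE14. The groups overlapped, and 2 hearts of each mutant group were above all controls. Its changes were 0.29 ± 0.27 in TrbE10 (adjusted p = 0.643) and 0.41 ± 0.27 in TrbE14 (adjusted p = 0.512).

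Over the 8 genes the median log2 change was -1.17 in TrbE10 and -0.19 in TrbE14 against control, beside -0.02 and -0.03 over all probes that passed the filter. Without TrbE10 2 the former was -0.53, and without both that heart and control 4 it was -0.26. The 2 comparisons share the control hearts. At an unadjusted p under 0.05 there were 3 members in TrbE10 (Adipoq, Plin1 and Cidea), where 16.4% of all probes passed that limit, 1 in TrbE14 (Cidea, beside 13.6%) and 0 between the mutants (beside 5.76%). For 0 members were the hearts of 2 groups free of overlap, beside 10.1%, 9.43% and 3.16% of all probes in the 3 comparisons. The exact permutation tests of single genes gave p from 0.0571 to 0.971 (24 tests, n = 4 against 4), and SAM, a permutation procedure, at a false discovery rate of 5% also called 0 members in each comparison, beside 2.1%, 1.32% and 0.00813% of all probes.

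The intervals say what these 12 hearts leave possible. Each is for a single gene and is not adjusted for the number of probes tested. For Cfd in TrbE10 the 95% interval of the log2 change ran from -3.43 to 0.38, and for Cidec from -3.24 to 0.25. For Retn it ran from -2.83 to 0.29, for Adipoq from -2.61 to -0.08 and for Plin1 from -1.95 to -0.17. For Cidea it ran from 0.03 to 0.58, for Fabp4 from -0.23 to 0.75 and for Pparg from -0.30 to 0.88. Since the sets were read in part from the spread, narrower intervals in the set of 3 follow from that choice.

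**Figure D2:**
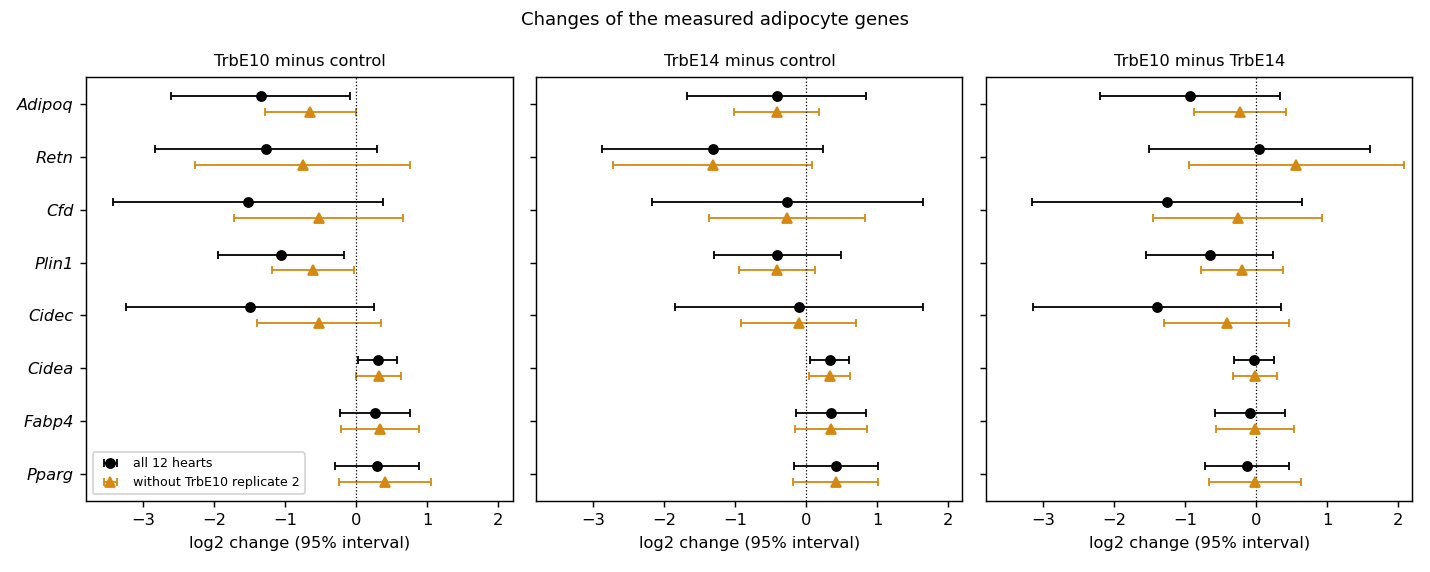
Log2 change (x axis) with its 95% interval from limma for the 8 measured genes (y axis) in the 3 comparisons, with all 12 hearts (circles) and without TrbE10 replicate 2 (triangles). In TrbE10 against control the circles of Adipoq, Retn, Cfd, Plin1 and Cidec lie between -1.52 and -1.06, and the triangles between -0.76 and -0.52. The circles of Adipoq, Retn, Plin1 and Cidec include a signal of TrbE10 2 that was not well above background.

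The spread between hearts set the members apart from each other. The pooled SD within groups was 1.36 for Cfd, 1.25 for Cidec, 1.12 for Retn, 0.90 for Adipoq and 0.63 for Plin1 on the log2 scale. It was 0.42 for Pparg, 0.34 for Fabp4 and 0.17 for Cidea, while the median over all probes that passed the filter was 0.22. The SD of Cfd was exceeded by 0.529% of those probes, that of Cidec by 0.703%, that of Retn by 1.04%, that of Adipoq by 2.13% and that of Plin1 by 6.32%. For Cidea 63.2% of the probes had a larger SD. TrbE10 2 carried much of this: without it the median SD of the members fell from 0.77 to 0.42. Within the control group, where that heart plays no part, the SD was 0.73 for Cidec and 0.61 without control 4. For Adipoq, Cfd, Retn and Plin1 the control spread rested largely on control 4: without it the SD went from 0.54 to 0.06 for Adipoq, from 0.58 to 0.25 for Cfd, from 0.55 to 0.33 for Retn and from 0.44 to 0.27 for Plin1.

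**Figure D3:**
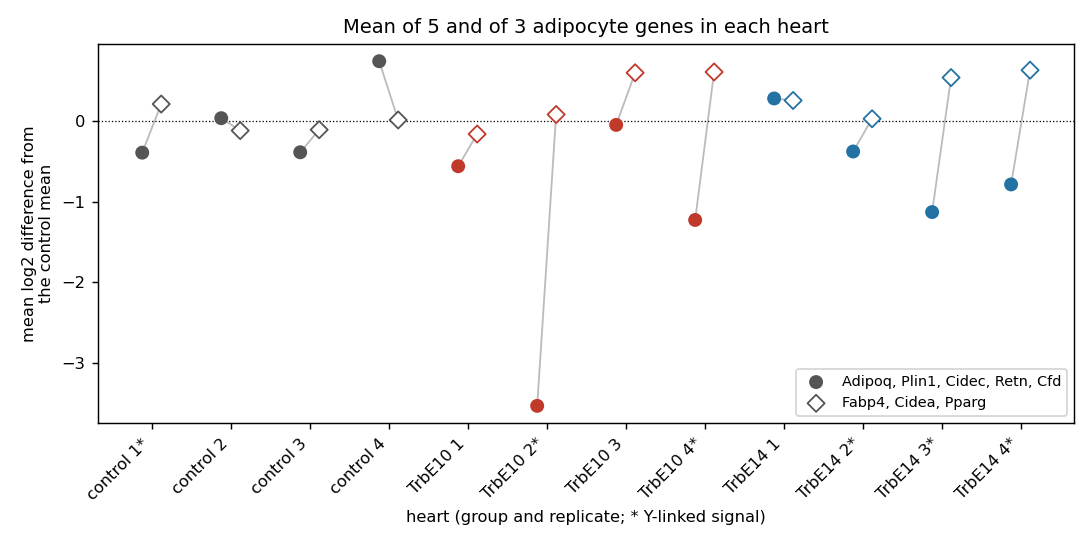
Mean log2 difference from the control mean (y axis) in each heart (x axis) for Adipoq, Plin1, Cidec, Retn and Cfd (filled circles) and for Fabp4, Cidea and Pparg (open diamonds), with a line joining the 2 means of a heart. TrbE10 2 is at -3.53 for the 5 genes and at 0.08 for the 3, and the 3 genes stay between -0.16 and 0.63 in all 12 hearts. In TrbE10 2, Adipoq, Plin1, Cidec and Retn were not well above background, so -3.53 is no measured size.

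The mean of the 5 genes, set against the control mean, was -0.39, 0.04, -0.39 and 0.74 in the control hearts, -0.56, -3.53, -0.05 and -1.23 in TrbE10, and 0.28, -0.38, -1.13 and -0.79 in TrbE14 (log2). The value of -3.53 is no measured size, since Adipoq, Plin1, Cidec and Retn were not well above background in TrbE10 2. In 5 mutant hearts (TrbE10 1, 2 and 4, and TrbE14 3 and 4) the mean of the 5 genes was below every control. The 5 genes were grouped after these values were seen, so this count is a description with no test. The mean of the 3 genes was 0.21, -0.12, -0.11 and 0.01 in control, -0.16, 0.08, 0.60 and 0.61 in TrbE10, and 0.26, 0.03, 0.54 and 0.63 in TrbE14.

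Genes of a set rose and fell in the same hearts. Over the deviations of the 12 hearts from their group means, Pearson's r was 0.755 to 0.963 for the 10 pairs within Adipoq, Plin1, Cidec, Retn and Cfd, with a median of 0.923. Without TrbE10 2 it was 0.705 to 0.942, with a median of 0.759. For Fabp4, Pparg and Cidea r was 0.571 to 0.909 (3 pairs). Between the sets r ran from -0.243 to 0.239 over 15 pairs, and from -0.511 to 0.108 without TrbE10 2. Since the sets were read in part from these correlations, a higher r within a set than between the sets follows from that choice. The points of each pair share their arrays and the scaling between arrays, and these values are a description with no test.

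**Figure D4:**
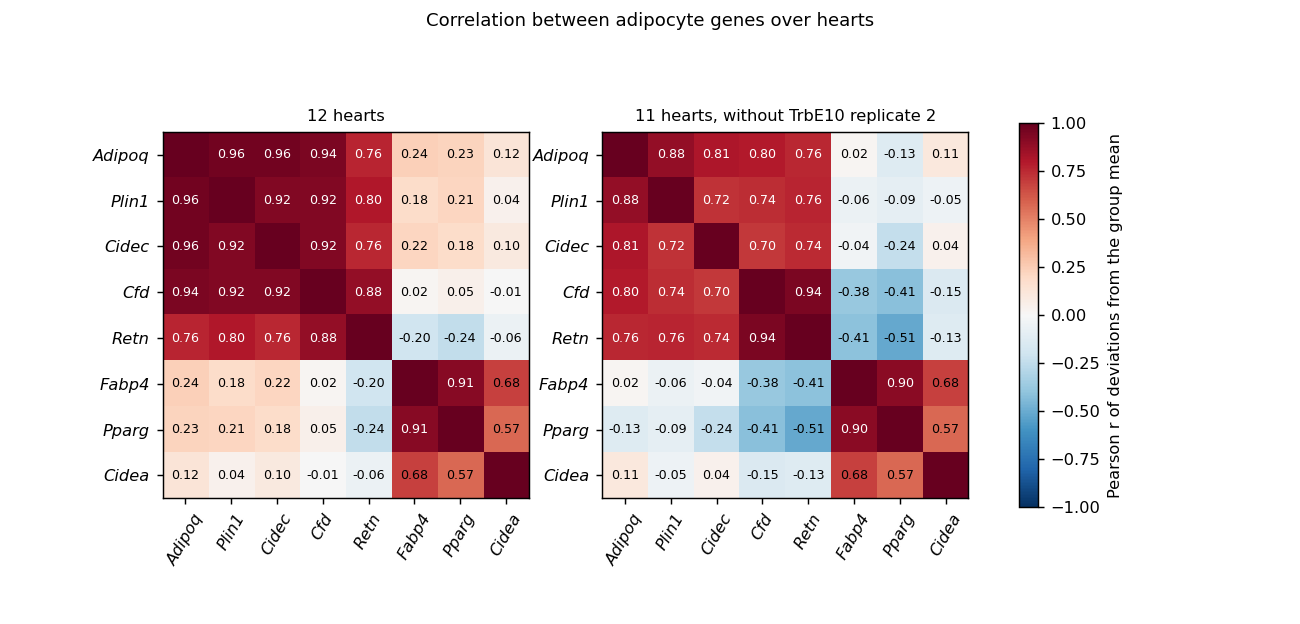
Pearson's r between the 8 measured genes (both axes), from the deviations of each heart's log2 signal from its group mean, over 12 hearts (left) and over 11 without TrbE10 replicate 2 (right). The block of 5 genes stays at 0.705 or above in both panels, and the block of Fabp4, Pparg and Cidea at 0.571 or above.

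The genes outside the 9 whose profile over the 12 hearts was most like the mean of the members were, among 15154 genes, Car3 (r = 0.950), 0610037P05Rik (0.900), Zfp958 (0.870), Doxl2 (0.865), Eml5 and Sds (both 0.858), Cdo1 (0.853), Cyp2e1 (0.851), Gm7536 (0.846) and LOC100503794 (0.834). The mean of the members mostly carried the set of 5, whose own r with it was 0.786 to 0.979. For Fabp4, Cidea and Pparg that r was 0.083, -0.115 and 0.087. Car3, Cdo1 and Cyp2e1 are genes that fat tissue expresses, among other tissues. Car3, a carbonic anhydrase, had a log2 signal of 8.85, 8.66, 8.42 and 9.49 in control, 8.23, 5.23, 8.15 and 7.48 in TrbE10, and 8.72, 8.36, 7.90 and 8.21 in TrbE14, again highest in control 4 and lowest in TrbE10 2. Without TrbE10 2, r was 0.780 for Car3, 0.618 for Cyp2e1, 0.553 for Cdo1 and from 0.161 to 0.476 for the other 7 genes. None of the 10 stayed among the 10 most like genes then, so that their rank rests on that heart.

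TrbE10 2 was the lowest of the 12 hearts for 7.69% of 24586 probes that passed the filter with no missing value. Gene by gene it was lowest for 2 of 10 cardiomyocyte genes, 1 of 10 endothelial genes, 0 of 11 macrophage genes, 1 of 9 mesothelial and epicardial genes and 0 of 3 genes of fat cell progenitors. Among the lists of fat cell biology it was lowest for 4 of the 13 other genes enriched in fat cells, 3 of 10 regulators, 2 of 17 genes of fatty acid and triglyceride synthesis, 1 of 4 adipokine receptors, 0 of 11 genes of the droplet and lipolysis, 0 of 9 of uptake and 0 of 6 of brown fat. A summed signal follows its brightest genes and does not show such a drop: that of the 8 members was 50074 in TrbE10 2, within 41881 to 76171 in the others. How much of the low signal of the 5 genes came from fat left on the ventricle was not tested.

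Y-linked signal moved with part of the pattern. The log2 signal of Retn was 4.34 to 6.62 in the 6 hearts with it and 6.70 to 7.90 in the 6 without, with no overlap, beside 0.687% of all probes. Cfd (5.42 to 9.86 against 9.50 to 10.74), Adipoq (3.91 to 7.06 against 6.58 to 8.18), Plin1 (3.43 to 5.92 against 5.20 to 6.44) and Cidec (2.58 to 6.94 against 6.29 to 7.80) overlapped. With this signal as a covariate in limma, hearts that carried it differed by -1.74 ± 0.38 (SE) for Retn and by -1.80 ± 0.59 for Cfd, with adjusted p of 0.210 and 0.389, beside 0.0935% of all probes called. The split was unequal, with 1 control, 2 TrbE10 and 3 TrbE14 hearts carrying it. In that fit the change of Retn in TrbE14 went from -1.32 to -0.45 and that in TrbE10 from -1.27 to -0.84, and Adipoq, Cidec and Cfd in TrbE14 turned to 0.06, 0.59 and 0.63, none past the threshold.

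Around the members, 78 further genes in 7 lists of fat cell biology were read, and 70 were measured. In TrbE10 against control 3 of the 70 (4.29%) were called, 2 higher and 1 lower, beside 1.08% of all probes called higher and 0.61% lower. In TrbE14 against control 0 of the 70 were called, beside 0.468% of all probes called higher and 0.134% lower, and between the mutants 0 of 70, beside 0%. The calls were near the threshold: 0 of the 70 were called without control replicate 1, without control replicate 3, without TrbE10 replicate 3, with no filter on background, or from the TrbE10 and control arrays alone. Without TrbE10 2 there were 5 (Cebpa, Npr3, Nrg4, Ppara and Slc2a4), and without TrbE10 1 there were 2 (Cideb and Npr3).

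The called gene among the 10 regulators of fat cell formation was Cebpa, a factor that works with Pparg in fat cells and is also used by macrophages and hepatocytes. Its log2 signal was 6.77 to 7.18 in the control hearts, 7.29 to 7.97 in TrbE10 and 7.38 to 7.50 in TrbE14. Every mutant heart was above every control. It rose by 0.72 on the log2 scale (adjusted p = 0.0287) in TrbE10, and the change in TrbE14 was 0.51 (adjusted p = 0.156). Within groups the gene followed the members' mean (r = 0.890 over 12 hearts and 0.799 without TrbE10 2), although its group means moved the other way from those of Adipoq, Retn, Cfd, Plin1 and Cidec. The remaining 9 regulators, with Cebpb, Cebpd, Klf15 and Ppara among them, did not pass the test.

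Among 13 measured genes of the list of others enriched in fat cells, Npr3, a receptor that clears natriuretic peptides, rose by 1.24 in TrbE10 (log2, adjusted p = 0.0247), from 6.37 to 6.97 over the control hearts to 7.44 to 8.56. Its change in TrbE14 was 1.00 (adjusted p = 0.0967). Nrg4, a secreted ligand of ERBB4 found in brown fat, fell by 0.92 in TrbE10 (adjusted p = 0.0451), from 6.25 to 6.80 in control to 5.40 to 6.15, and its change in TrbE14 was -0.76 (adjusted p = 0.135). For Car3, in the same list, the TrbE10 value was -1.58 (adjusted p = 0.189) and, without TrbE10 2, -0.91 (adjusted p = 0.119). For Adig, a small membrane protein of fat cells, the TrbE10 value was -0.69 (adjusted p = 0.348). Unlike Car3, Adig was not low in TrbE10 2: its log2 signal was 6.21, 7.83, 6.85 and 7.61 in TrbE10, against 7.45 to 8.24 in control. Acvr1c, Lgals12 and Orm1 did not pass the filter on background.

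In the lists of lipid handling no gene passed the test with all 12 hearts. Of 11 genes of the droplet and of lipolysis the median log2 change was -0.06 in TrbE10 and 0.04 in TrbE14. Plin2, the coat protein of droplets in most cells, had changes of 0.45 and 0.52 (adjusted p = 0.332 and 0.331), and Cideb, a relative of Cidea and Cidec, -0.70 and -0.60 (adjusted p = 0.122 and 0.255). Of 17 genes that make fatty acids and triglyceride the medians were 0.06 and -0.03. Pck1, which fat cells use to make glycerol, had a log2 change of -1.33 in TrbE10 and 0.68 in TrbE14 (adjusted p = 0.275 and 0.599). In TrbE10 it was well above background in 2 of 4 hearts, and without TrbE10 2 its change there was -0.71 (adjusted p = 0.335). Of 9 genes of fatty acid and glucose uptake the medians were -0.16 and 0.08, with Slc2a4, the insulin-responsive glucose transporter, at -0.38 (adjusted p = 0.104) and -0.24. The 4 receptors of adiponectin and leptin had medians of -0.06 and 0.02.

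Brown fat was read from 11 genes, of which 6 passed the filter. Ucp1, the uncoupling protein that defines brown fat cells, did not pass, nor did Elovl3, Otop1, Lhx8 and Slc27a2. The median log2 change of the 6 was -0.41 in TrbE10 and -0.18 in TrbE14, with 0 called. Dio2, which activates thyroid hormone, had changes of 1.26 and 1.09 (adjusted p = 0.134 and 0.264), and Kcnk3, a potassium channel that heart muscle also expresses, -0.37 and -0.09 (adjusted p = 0.0784 and 0.699). Of 3 measured genes of fat cell progenitors, with Pdgfra and Cd34, 0 were called.

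**Figure D5:**
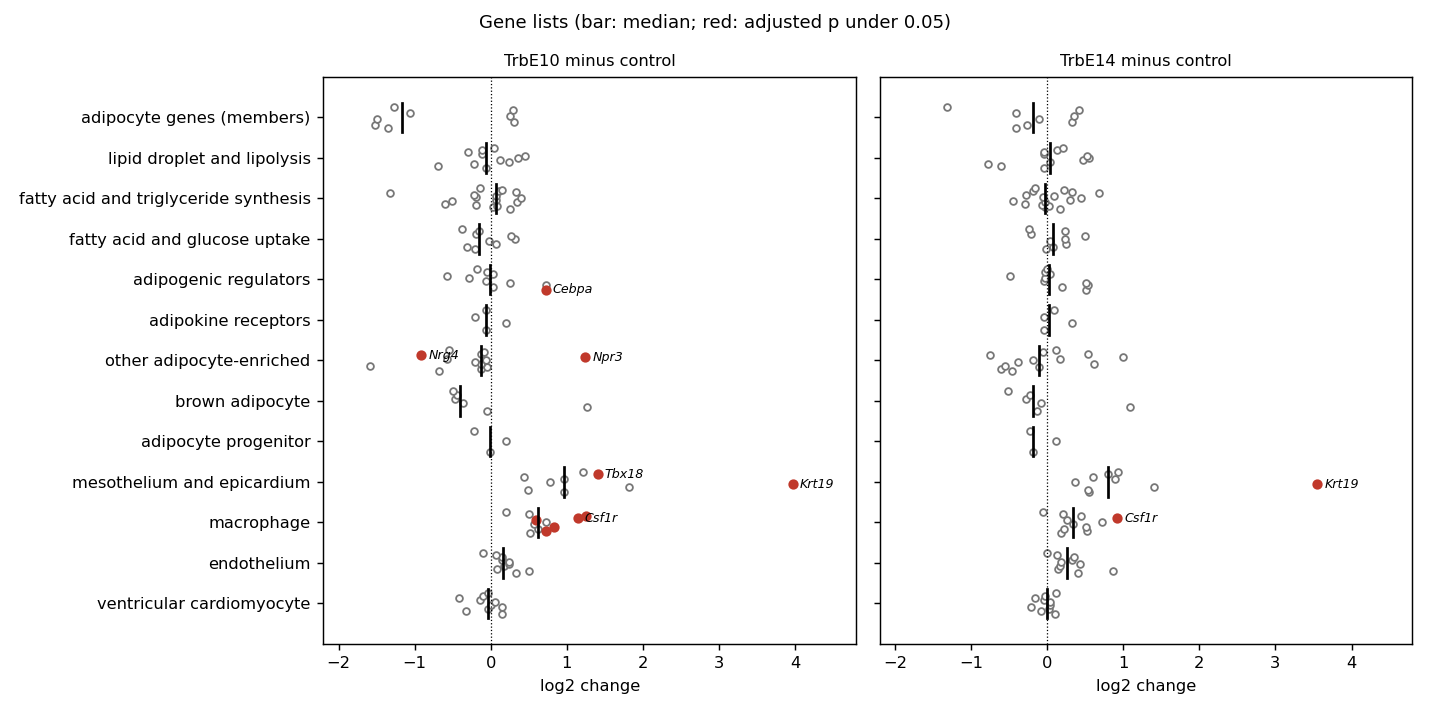
Log2 change (x axis) of each measured gene in 13 gene lists (y axis) in TrbE10 (left) and TrbE14 (right) against control. Black bars are medians and red points are genes with an adjusted p under 0.05 in limma, named except for 4 macrophage genes in TrbE10. The members' median lies at -1.17 in TrbE10 and -0.19 in TrbE14, and the medians of macrophage genes at 0.61 and 0.33.

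Over the 70 genes the likeness to the members was examined too. Within groups r with the members' mean was over 0.5 for 10 of the 70 (14.3%), beside 8.68% of all ranked genes, and without TrbE10 2 for 12 of the 70 (17.1%), beside 10.3%. Cebpa, Car3, Hilpda, Elovl6, Scd1 and Rbp4 were over it both times. The median r of the 70 was 0.023, beside -0.013 over all ranked genes, and without TrbE10 2 it was 0.094, beside 0.03. Fasn, the fatty acid synthase, had an r of 0.775 over 12 hearts and 0.236 without TrbE10 2.

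Markers of other cell types moved between the groups while the members did not pass the test. All 9 measured mesothelial and epicardial genes had higher means in both mutants. Of these, 2 were called in TrbE10 and 1 in TrbE14, beside 1.08% and 0.468% of all probes called higher. Krt19 was higher in TrbE10 (adjusted p = 0.00122) and TrbE14 (adjusted p = 0.00341), with a log2 signal of 7.35 to 8.84 and 7.38 to 7.98 against 3.38 to 5.39 in control. Only 1 of the 4 control arrays was well above background for it, so that no size of the change is given. Tbx18 was also called higher in TrbE10 (adjusted p = 0.0292), with 2 of 4 control arrays well above background. Krt19 and Tbx18 thus passed the filter through the mutant groups only, where they were high. The counts of calls in this list are therefore no independent support. Of the genes that define mesothelium, Msln was well above background in 3, 3 and 4 hearts of control, TrbE10 and TrbE14 (log2 change 0.97 and 0.89, adjusted p = 0.697 and 0.718) and Muc16 in 2, 3 and 3, while Upk3b, Upk1b, Lrrn4 and Bnc1 did not pass the filter. The summed signal of the 9 was 923 to 1696 in control, 1861 to 3844 in TrbE10 and 1685 to 3131 in TrbE14.

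Of 11 macrophage genes, 5 were called higher in TrbE10 and 1, Csf1r, in TrbE14 as well (log2 change 1.14, adjusted p = 0.000112, and 0.92, adjusted p = 0.000607). The summed signal of the 11 macrophage genes was 11622 to 14132 in control, 19938 to 24926 in TrbE10 and 18270 to 19609 in TrbE14. Of 4 measured skeletal muscle genes Tnni2 fell by 1.38 in TrbE10 (adjusted p = 0.0193), while Myl1 had a change of 1.25 (adjusted p = 0.233), and the summed signal of the 4 was 4022 to 13010 in control, 8652 to 26912 in TrbE10 and 7894 to 23765 in TrbE14. In the lists of endothelium (10 genes), lymphocytes (5), red blood cells (4) and ventricular cardiomyocytes (10), 0 genes were called in either mutant. Over all probes the share called was 1.69% in TrbE10 and 0.602% in TrbE14. The part of these cell types in the changes of Cebpa, Npr3 and Nrg4 was not tested.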

How the data were processed

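Per the labels, total RNA of each heart was labelled with Cy3 and hybridised to its own Agilent array, which was read with Feature Extraction 10.5. The intensity taken from each deposited scanner file was the processed signal, from which that software had subtracted background. The authors also deposited a table of quantile-normalized log2 values filtered on background (19800 probes, correlated at 0.9955 to 0.9985 with the values used here), which served as an alternative. Manufacturer's control spots were left out, outlier spots set to missing, signals log2-transformed and quantile normalized, and spots averaged by probe. A probe was kept when well above background on 75% of the arrays (3 of 4) of any group, and a gene was read from its brightest such probe. Models with 1 mean per group were fitted over 24593 probes (R 4.3.3, limma 3.58.1) with Benjamini-Hochberg adjustment, and every adjusted p comes from them. The exact tests were two-sided. The fit and SAM were tested on simulated data. Alternatives covered scaling, background correction, the filter, the samples in the fit, the replicate block, the Y-linked covariate, the summary over probes and leaving out each heart.

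The members, the 15 other gene lists and the tests were chosen with earlier results of these data known. Genes named outside the members were to be Nkx2-5, up to 4 genes of each list by adjusted p, and the 10 most like the members. Those named because they did not pass the filter, Ddx3y and Eif2s3y, the genes named for their likeness within groups, and Klf15, Cebpb, Msln and Muc16 were named after their values were seen. The labels separate the hearts of a group by replicate only, so that p-values measure the spread between these samples. The number of arrays limits the precision. Replicates of a group correlated at 0.974 to 0.990.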

Additional observations from a re-analysis of the deposited data

Results flagged for a closer look

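Within groups of 4 hearts, the gap between an extreme heart and its nearest neighbour, divided by the range of the group, was above Dixon's 95% critical value for 3 of 24 combinations of gene and group (12.5%). For a single combination chance gives about 1 in 20. The 24 are not independent, since the same hearts recur for every gene and the genes correlate. Plin1 and Cidec were flagged in the same heart, so the share cannot be read as an excess. Adipoq stood out in control 4, at a log2 signal of 8.18 with the gap at 0.902 of the range. In TrbE10 2, Plin1 stood out at 3.43 (0.830 of the range) and Cidec at 2.58 (0.873), both below the limit of well above background.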

How the results depend on the processing

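No adipocyte gene was called under any of 24 other settings (552 values, lowest adjusted p 0.158, for Plin1 in TrbE10 with the authors' values). In TrbE10 against control 416 probes were called, 197 with no filter on background (more probes tested) and 263 from the 2 groups alone (fewer arrays), and in TrbE14 148, 240 with normexp and 325 with SAM. Between the mutants 0 became 2 with scaling to the 75th percentile, with no filter and with SAM. The median change of the members in TrbE10, -1.17, was -0.50 with normexp and, in an alternative chosen after seeing the data, -0.26 without control replicate 4 and TrbE10 replicate 2. With scaling to the 75th percentile 1 exact permutation test passed (Plin1 in TrbE10, p = 0.0286, n = 4 against 4). The median SD of the members, 0.77, was 0.40 with normexp, 0.51 with the authors' values and 0.41 without both hearts. Of the 10 genes most like the members, 6 were again among the 10 with scaling to the 75th percentile, with normexp and with signals raised to the background limit (also chosen after seeing the data), 5 with the authors' values, 4 with no filter and 0 without both hearts.

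Signs turned for changes that did not pass the test: in TrbE14 against control with the Y-linked covariate (Adipoq 0.063, Cidec 0.59, Cfd 0.63) and without both hearts (Cidec 0.16, Cfd 0.0046), and between the mutants for Retn with scaling to the 75th percentile (-0.10), with the covariate (-0.39) and with the mean of its probes (-0.14). The causes of the differences between settings were not tested.

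Leaving out 1 heart at a time gave 159 (without TrbE10 replicate 3) to 709 (without TrbE10 replicate 2) probes in TrbE10 against control, 83 to 190 in TrbE14, and 0 to 1 between the mutants. In TrbE10 the members' median lay between -1.50 and -0.53. In TrbE14 its limits were -0.43 and 0.08, and it was above 0 without control replicate 4 and without TrbE14 replicate 3. The median SD ran from 0.42 (without TrbE10 replicate 2) to 0.81, and 0 (without TrbE10 replicate 2) to 9 of the 10 most like genes stayed. Single changes that turned ran from -0.35 to 0.16 (Cidec) and -0.53 to 0.0046 (Cfd) in TrbE14, and between the mutants from -0.24 to 0.094 (Fabp4), -0.13 to 0.063 (Cidea), -0.45 to 0.56 (Retn) and -0.27 to 0.041 (Pparg).

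The labels do not say whether the replicate numbers pair hearts of different groups. Deviations of same-numbered hearts correlated at -0.242 to 0.476 over 12 pairs, 3 of them above 0.1. Without differently numbered pairs beside them, these values do not settle whether any hearts were paired. With the replicate block 316, 146 and 1 probes were called in the 3 comparisons, 0 members, and 0 of the 70 further genes. A slide block could not be fitted, since each slide held whole groups, and was not run. Signals below the limit of well above background in TrbE10 2 bound the folds of Adipoq, Plin1, Cidec and Retn.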

Other observations

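Without TrbE10 2, the genes most like the members' mean over the remaining 11 hearts were Skp1a (r = 0.885), Sac3d1 (0.875), Dstyk (0.871), Nr1h4 (0.839) and Atf5 (0.836). Car3 stood at 0.780.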
